A study of Sus scrofa with 15 samples.

Results

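The 39 genes described here are the immediate early genes and the feedback regulators of the MAPK cascade, read in IPEC-J2 cells, a line of pig small intestinal epithelium. They were chosen by name, by the pig symbol that RefSeq gives to each gene number in the deposited tables. Of the 39 genes, 38 had a row in each table, among 19000 genes for the knockdown vectors and 17001 genes for the overexpression vectors. NR4A1, an orphan nuclear receptor, was not analysed here. Of these, 36 reached at least 1 FPKM in 3 or more libraries of a table and were tested there, FPKM being the deposited measure of fragments per length of transcript and depth of library. The phosphatase gene DUSP2 and the Sprouty gene SPRY4 did not, with at most 0.62 and 0.08 FPKM in any library.

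In this cascade, growth factor receptors act through Ras, Raf and MEK to activate the ERK kinases. Active ERK switches on immediate early genes within minutes and without new protein synthesis, among them the transcription factors of the FOS, JUN and EGR families. The same signal also switches on its own inhibitors, the dual specificity phosphatases (DUSP) that remove phosphate from MAP kinases and the Sprouty (SPRY) and SPRED proteins that act upstream at Ras and Raf. The levels of these transcripts are therefore often read as a record of pathway activity, although phosphorylated ERK itself was not measured here.

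All cells were IPEC-J2 carrying a lentiviral vector, and RNA was sequenced in 3 libraries per vector. OV143 is the vector that overexpresses miR-143, and Lv20NC is its control vector. Lv133KD is the vector that knocks down miR-133, Lv143KD is the other knockdown vector, and Lv3NC is the control of both. For Lv143KD the description of the series names miR-133, as for Lv133KD, whereas its sample name carries 143, so its target is unsettled. No source used here gives the levels of the miRNAs, the time after infection or the share of cells infected, and none says whether the 3 libraries of a vector were separate cultures. The p-values below therefore rest on the spread between these libraries, which may be technical. Where the replicate number of the sample name also enters the fit, they rest on the spread left after vector and number. These are bulk RNA samples, in which fewer cells expressing a gene and less RNA per cell cannot be told apart.

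Between 11250 and 11557 genes reached 1 FPKM in a library, and read totals are unknown. The FPKM values of a library summed to between 486085.9 and 558042.1 except in OV143 replicate 2, where they summed to 662021.8. All 6 epithelial markers (KRT8, KRT18, KRT19, EPCAM, CDH1 and CLDN4) were measured and together reached 1681 to 3396 FPKM in a library. The enterocyte markers were low, with 1 of 3 listed for the knockdown vectors and 2 of 3 for the overexpression vectors, at 0.98 to 4.14 FPKM in all. Marker lists of fibroblasts, endothelial cells and immune cells summed to at most 6.39, 13.38 and 8.61 FPKM. The epithelial part of the label thus had its markers, and the intestinal part few of them.

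In the 2 control vectors most of the 38 genes were well expressed. Levels are per length, as mean FPKM over 3 libraries, and the tables were normalised separately, so levels set across them are a description with no test. In Lv20NC the order began with FOS at 341.1 ± 27.2 FPKM (SD, n = 3), MYC at 220.6 ± 17.2, EGR1 at 213.1 ± 22.9, KLF10 at 163.6 ± 6.21 and IER3 at 161.9 ± 10.2 FPKM. The libraries of MYC and EGR1 overlapped, as did those of KLF10 and IER3, whereas FOS was above all other members in each Lv20NC library. In Lv3NC the order began with MYC at 153.8 ± 67.1 FPKM, KLF6 at 149.2 ± 3.42, KLF10 at 147.8 ± 19.7, IER3 at 115.5 ± 27.7 and EGR1 at 105.6 ± 29.6 FPKM. The libraries of each of these 5 overlapped those of its neighbour in the order.

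FOS stood first in Lv20NC and 11th in Lv3NC, with a level 5.41 times as high in Lv20NC. Other members that were over 2-fold higher in Lv20NC were DUSP7, at 41.5 ± 4.53 FPKM in Lv20NC and 2.61 ± 2.12 FPKM in Lv3NC, EGR2, SPRY1 and EGR1, with ratios of 15.9, 2.82, 2.32 and 2.02. EGR3, FOSB and DUSP2 also did so, at 4.56, 3.74 and 3.76 times, but their means lay under 1 FPKM in Lv3NC. DUSP7 in Lv3NC was itself uneven, at 5.06, 1.38 and 1.40 FPKM in replicates 1 to 3. Of 34 members with at least 1 FPKM on average in both controls, 5 differed at least 2-fold, which is 14.7% of them against 4.74% of 11030 genes. KLF6 and DUSP1 were lower in Lv20NC than in Lv3NC, at 0.604 and 0.615 times the level. The gap was not particular to the controls. FOS had 30.53 to 75.19 FPKM over all libraries of the knockdown table and 200.99 to 371.92 FPKM over all of the overexpression table. DUSP7 had 0.61 to 5.06 and 28.69 to 44.38 FPKM. A difference between the control vectors thus cannot be told apart from one between the tables, and OV143 is set only against Lv20NC below.

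**Figure D1:**
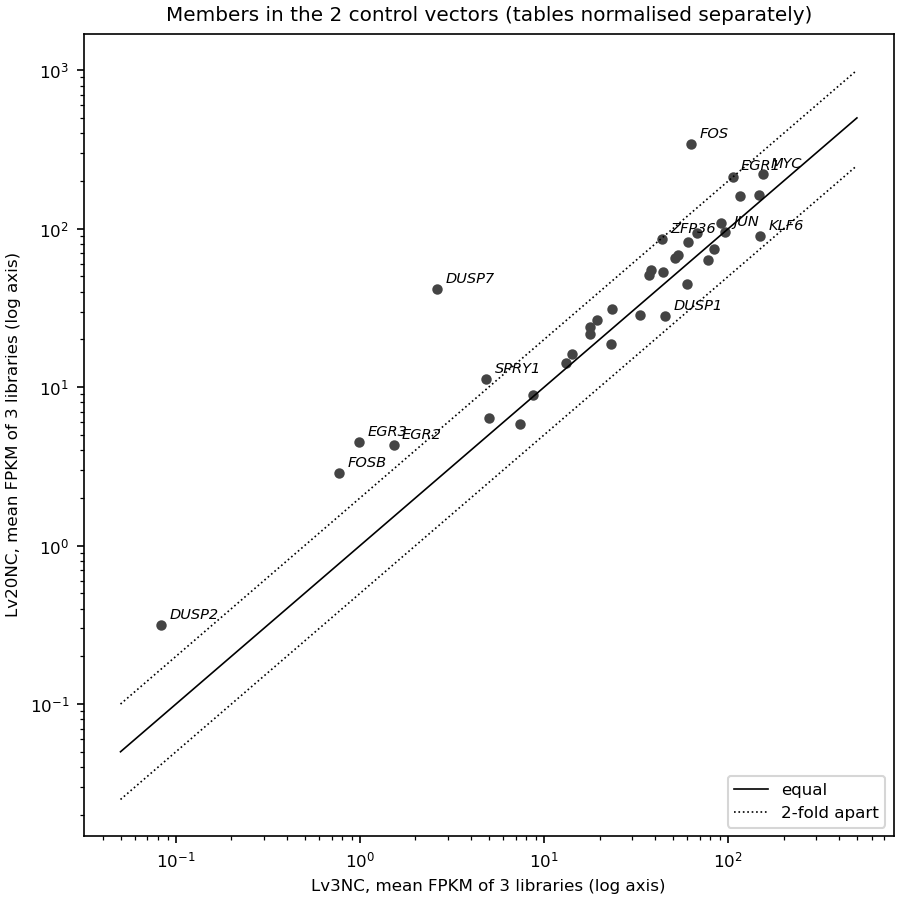
Mean FPKM of the members in the control vectors, Lv20NC on the vertical and Lv3NC on the horizontal axis, both log axes, with SPRY4 left out for its very low level and the line of equal values drawn. FOS (341.1 against 63.0 FPKM) and DUSP7 (41.5 against 2.61 FPKM) lie farthest above the line among members over 1 FPKM in both, and KLF6 lies below it.

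The vector that overexpresses miR-143 was set against its control vector. Of the 36 tested members, 33 had lower mean log2 levels in OV143 than in Lv20NC and 3 had higher ones. Over all 11506 genes tested, 6235 were lower and 5271 higher. After quantile or median-ratio scaling 32 members were lower and 4 higher, beside 5617 and 5888 or 5913 and 5580 of all genes. Leaving out 1 library gave 30 to 34 lower members. The median log2 fold change of the members was -0.37, beside -0.02 over all 11506 genes tested. In 23 of the 36 every OV143 library lay below every Lv20NC library, a pattern that 12.9% of all genes tested showed. JUN was the single member with all 3 OV143 libraries above all 3 Lv20NC libraries, a pattern of 8.96% of all genes. The members that fell most were the AP-1 gene FOSL1, the early growth response genes EGR3 and EGR1, the ERK-induced gene PHLDA1 and the receptor gene EPHA2, in the fit described next.

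How firm these differences are depends on whether the replicate number enters the fit. Levels were compared as log2(FPKM + 1) with limma, a gene being called at a Benjamini-Hochberg adjusted p under 0.05 over all genes tested. Without the replicate number no member was called, and no gene of all 11506 was (0%), although 20 of the 36 members and 11.3% of all genes had an unadjusted p under 0.05. Libraries with the same number deviated together from their group means, with correlations of 0.229, 0.716 and 0.547 for numbers 1 to 3, so the number was also fitted as a block. The pairing is not settled, since Lv20NC replicate 3 with OV143 replicate 1 reached 0.54, above the 0.229 of number 1. The calls with the block rest on this pairing. With that block 9 of the 36 members were called, all lower in OV143, beside 1.94% of all genes called in either direction and 1.29% called lower. For OV143, "fell" below is used only of genes called lower with the block, which among the members are these 9. In the later contrast of replicate numbers it is used of genes called lower there. In all comparisons of vectors, SE is the standard error of the fit without the block, so it does not belong to an adjusted p with the block.

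The AP-1 transcription factors are dimers of FOS family and JUN family proteins. FOSL1 (gene 100525205, chromosome 2, 6430158 to 6436173), which encodes Fra-1, had 24.02, 25.49 and 23.12 FPKM in OV143 replicates 1 to 3, against 61.82, 60.05 and 43.23 FPKM in Lv20NC. The groups lay far apart, and the 3 OV143 libraries were close to each other. FOSL1 fell by 1.14 on the log2 scale (SE 0.15, limma adjusted p = 0.00353 with the block and 0.0798 without). FOS (gene 100144486, chromosome 7, 98449508 to 98451971), the founding member of the family, had 250.52, 200.99 and 253.63 FPKM in OV143, against 371.92, 320.31 and 331.10 FPKM in Lv20NC. Its groups did not overlap, and it fell by 0.54 (SE 0.13, limma adjusted p = 0.0342 with the block and 0.218 without).

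FOSL2, which encodes Fra-2, had 47.70, 34.99 and 43.94 FPKM in OV143, against 57.69, 51.70 and 49.37 FPKM in Lv20NC, without overlap but with a limma adjusted p of 0.14 with the block. FOSB was low, at 2.20, 2.83 and 2.88 FPKM in OV143 and 3.16, 2.60 and 2.87 FPKM in Lv20NC, and its groups overlapped. The 4 FOS family genes thus differed in size of change, with log2 fold changes of -1.14 for FOSL1, -0.54 for FOS, -0.33 for FOSL2 and -0.10 for FOSB.

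JUN (gene 396913, chromosome 6, 153686425 to 153687635), the main partner of FOS proteins in AP-1, went the other way. It had 116.92, 125.78 and 120.63 FPKM in OV143, against 95.28, 96.32 and 92.25 FPKM in Lv20NC, so that all OV143 libraries were higher, with a mean 1.28 times that of Lv20NC. Its log2 fold change was 0.35 (SE 0.09), with limma adjusted p = 0.0889 with the block and 0.229 without, so it was not called by either. JUN was singled out after its values were seen, as the one member higher in every OV143 library. JUNB averaged 45.8 ± 2.95 FPKM in OV143 and 50.9 ± 4.87 FPKM in Lv20NC, and JUND 45.9 ± 8.51 and 45.1 ± 5.46 FPKM, with overlapping groups in both.

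The EGR genes encode zinc finger transcription factors that are induced within minutes of ERK activation. EGR1 (gene 100520726, chromosome 2, 140440829 to 140445302) had 133.81, 86.83 and 127.34 FPKM in OV143, against 236.33, 190.61 and 212.44 FPKM in Lv20NC. Every OV143 library lay far below every control library, and replicate 2 was the lowest. EGR1 fell by 0.89 on the log2 scale (SE 0.18, limma adjusted p = 0.00802 with the block and 0.163 without).

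EGR3 (gene 100516296, chromosome 14, 6943184 to 6948507) had 2.31, 0.93 and 2.13 FPKM in OV143, against 5.06, 4.18 and 4.25 FPKM in Lv20NC, and its groups did not overlap. It fell by 1.01 (SE 0.21, limma adjusted p = 0.009 with the block and 0.175 without), a scale that understates the change of a gene this low. EGR2 had 2.96, 1.46 and 3.86 FPKM in OV143, against 4.81, 3.28 and 4.77 FPKM in Lv20NC. OV143 replicate 3 lay above Lv20NC replicate 2, and EGR2 was not called (limma adjusted p = 0.0638 with the block).

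Among other transcription factors of the early response, MAFF (gene 100156484, chromosome 5, 9683651 to 9696128) encodes a small MAF protein that dimerises with other leucine zipper factors. MAFF had 17.58, 14.16 and 17.90 FPKM in OV143, against 31.30, 36.29 and 25.57 FPKM in Lv20NC. The groups stood apart, and MAFF fell by 0.86 (SE 0.15, limma adjusted p = 0.0194 with the block and 0.124 without). KLF10 (gene 100153665, chromosome 4, 34430132 to 34435990), a Krüppel-like zinc finger gene also known as a TGF-beta inducible early gene, had 118.98, 67.63 and 115.90 FPKM in OV143, against 166.78, 167.59 and 156.46 FPKM in Lv20NC. Replicate 2 was again the lowest, and KLF10 fell by 0.74 (SE 0.21, limma adjusted p = 0.0468 with the block and 0.268 without).

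MYC, which encodes a transcription factor of cell growth, had 169.09, 148.81 and 164.35 FPKM in OV143, against 231.42, 229.50 and 200.79 FPKM in Lv20NC. ATF3, a stress-inducible factor that pairs with JUN proteins, had 59.91, 44.62 and 56.27 FPKM in OV143, against 75.34, 74.19 and 73.66 FPKM in Lv20NC. Both were lower in every OV143 library without being called (limma adjusted p = 0.0624 and 0.0589 with the block). KLF6 had 88.26, 49.79 and 84.03 FPKM in OV143, against 93.00, 82.58 and 94.71 FPKM in Lv20NC, so only replicate 2 stood clear of the controls. ETV4, ETV5 and SRF had log2 fold changes of -0.16, -0.28 and -0.20, and none of them was called. ETV4 and ETV5 are ETS family factors downstream of ERK, and SRF binds the serum response element of many immediate early genes.

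The immediate early response genes differed among themselves. IER3, which encodes a regulator of cell survival, had 120.61, 119.26 and 121.32 FPKM in OV143, against 168.06, 167.63 and 150.15 FPKM in Lv20NC. The OV143 libraries were nearly equal to each other and below all controls, with a log2 fold change of -0.42 and a limma adjusted p of 0.063 with the block. IER2, a nuclear protein gene, averaged 80.7 ± 1.83 FPKM in OV143 and 81.9 ± 6.74 FPKM in Lv20NC, a log2 fold change of -0.02. IER5 averaged 57.9 ± 0.903 and 63.6 ± 4.83 FPKM, with overlapping groups. ZFP36, which encodes the mRNA-destabilising protein tristetraprolin, had 77.72, 103.52 and 79.16 FPKM in OV143, against 87.60, 89.98 and 81.12 FPKM in Lv20NC, and OV143 replicate 2 was its highest library. BTG2, an antiproliferative gene, and CCND1, which encodes cyclin D1, had log2 fold changes of -0.35 and -0.46 with every OV143 library below the controls, and neither was called (limma adjusted p = 0.106 and 0.0513 with the block).

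Among the feedback phosphatases, DUSP5 (gene 100157144, chromosome 14, 120906340 to 120919398) acts on ERK in the nucleus. DUSP5 had 44.17, 45.24 and 44.55 FPKM in OV143, against 69.93, 65.51 and 68.69 FPKM in Lv20NC. The libraries within each group were close together and the groups wide apart. DUSP5 fell by 0.60 (SE 0.08, limma adjusted p = 0.0171 with the block and 0.0856 without).

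DUSP6, the cytoplasmic ERK phosphatase, had 88.04, 64.82 and 86.28 FPKM in OV143, against 94.03, 96.18 and 91.28 FPKM in Lv20NC. DUSP7, its close relative, had 31.10, 32.68 and 28.69 FPKM in OV143, against 44.38, 43.75 and 36.23 FPKM in Lv20NC. DUSP4, a nuclear phosphatase, had 16.06, 12.51 and 13.80 FPKM in OV143, against 19.41, 19.48 and 17.23 FPKM in Lv20NC. In all 3 the OV143 libraries lay below the controls, but none was called with the block (limma adjusted p = 0.281, 0.0638 and 0.0989). DUSP1, a nuclear phosphatase that prefers the stress kinases p38 and JNK, had 28.22, 32.69 and 27.55 FPKM in OV143, against 28.83, 28.01 and 26.95 FPKM in Lv20NC, and its groups overlapped. DUSP2 stayed at 0.30 to 0.62 FPKM in OV143 and 0.26 to 0.38 FPKM in Lv20NC.

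The Sprouty and SPRED proteins inhibit the cascade at Ras and Raf. SPRY2 had 51.14, 43.71 and 51.72 FPKM in OV143, against 66.63, 65.81 and 62.69 FPKM in Lv20NC, and SPRED2 had 13.19, 10.71 and 13.29 FPKM, against 18.35, 15.59 and 14.82 FPKM. Both lay below the controls in every OV143 library without being called (limma adjusted p = 0.0725 and 0.117 with the block). SPRED1 was at 5.81, 4.62 and 5.79 FPKM in OV143, against 6.10, 6.75 and 6.42 FPKM in Lv20NC. SPRY1 was at 11.01, 9.44 and 12.24 FPKM in OV143, against 12.11, 9.45 and 12.20 FPKM in Lv20NC, with a log2 fold change of -0.04. SPRY4 was at 0.01 FPKM in each OV143 library and at 0.05, 0.03 and 0.00 FPKM in Lv20NC.

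Of the remaining members, PHLDA1 (gene 100523904, chromosome 5, 39309701 to 39319313) encodes a pleckstrin homology-like domain protein whose transcript is induced through ERK. PHLDA1 had 15.56, 9.17 and 14.21 FPKM in OV143, against 28.15, 26.40 and 24.48 FPKM in Lv20NC. Its mean in OV143 was 0.493 times that in Lv20NC, and it fell by 1.00 (SE 0.19, limma adjusted p = 0.00918 with the block and 0.148 without). EPHA2 (gene 100522873, chromosome 6, 75251465 to 75279364), a receptor tyrosine kinase for ephrin-A ligands and a transcriptional target of ERK, had 62.23, 38.93 and 64.46 FPKM in OV143, against 116.08, 112.60 and 96.32 FPKM in Lv20NC. The groups did not overlap, and EPHA2 fell by 0.99 (SE 0.20, limma adjusted p = 0.0155 with the block and 0.16 without). Its relative EPHA4 had 5.02, 2.57 and 5.66 FPKM in OV143, against 6.56, 5.17 and 5.76 FPKM in Lv20NC, with overlap.

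**Figure D2:**
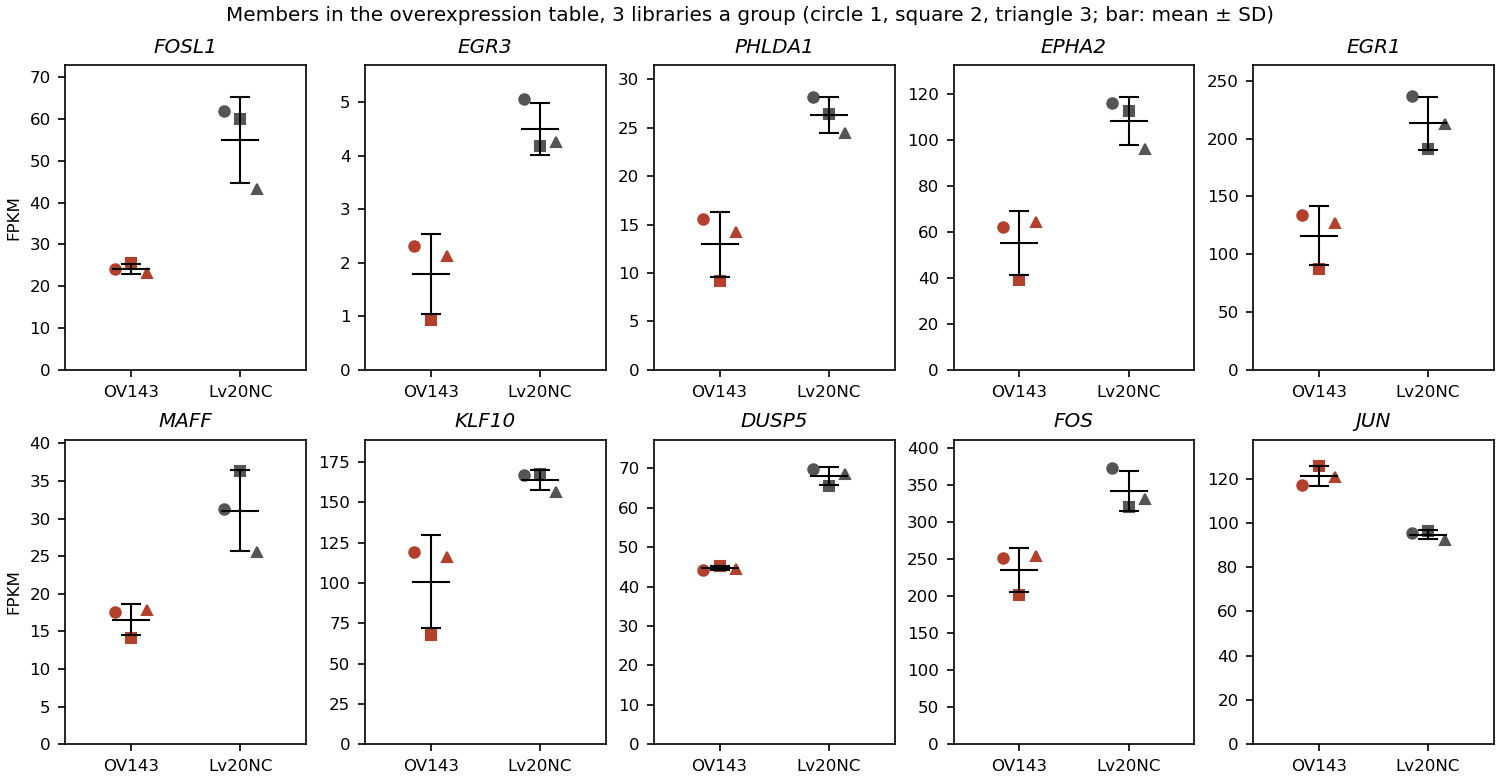
FPKM of selected members in each library, OV143 left of Lv20NC, with a circle, square and triangle for replicates 1, 2 and 3 and bars for the mean ± SD. FOSL1, DUSP5, EGR1 and the other genes called with the block lie lower in all OV143 libraries, while JUN lies higher (121.1 against 94.6 FPKM on average).

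OV143 replicate 2 was the most extreme library. Measured from each gene's mean over the 6 libraries, the members had median log2 deviations of -0.13, -0.34 and -0.15 in OV143 replicates 1 to 3, against 0.26, 0.17 and 0.11 in Lv20NC. Over all genes tested the medians of the libraries lay from -0.015 to 0.021, with 0.013 in OV143 replicate 2. In 23 of the 36 members the lowest value of the table was in OV143 replicate 2, the same library whose FPKM sum stood apart. The share over all genes was not taken, so this count does not set the members apart from other genes. Without that library 17 of the 36 members were called, 16 lower and JUN higher, beside 4.48% of 11414 genes, and the members' median log2 fold change was -0.26. The 9 genes called with the block were also called without this library, with log2 fold changes from -1.17 for FOSL1 to -0.43 for FOS. The further 7 lower calls were CCND1, IER3, MYC, SPRY2, ATF3, BTG2 and DUSP7, with limma adjusted p-values of 0.0133 to 0.0308.

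Cell type markers were read in the same libraries. The 4 endothelial markers summed to 4.95 to 6.45 FPKM in OV143 and 6.53 to 6.84 FPKM in Lv20NC, which do not overlap, and their part in the result was not tested. Immune markers, 4 of 5 measured, summed to 5.54 to 8.61 FPKM in OV143 and 5.15 to 5.79 FPKM in Lv20NC, and fibroblast markers to 2.52 to 2.72 and 2.16 to 2.70 FPKM. The epithelial markers summed to 2306 to 3396 FPKM in OV143 and 2437 to 2733 FPKM in Lv20NC, with single markers apart in both directions. EPCAM was higher in every OV143 library, at 608.42, 717.87 and 633.81 FPKM in OV143 and 485.60, 571.35 and 556.78 FPKM in Lv20NC. CDH1 was lower in every one, at 226.10, 158.55 and 226.15 FPKM in OV143 and 258.35, 238.10 and 252.19 FPKM in Lv20NC. KRT8, KRT18, KRT19 and CLDN4 were highest of the 6 libraries in OV143 replicate 2, and the part of these markers in the result was not tested.

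**Figure D3:**
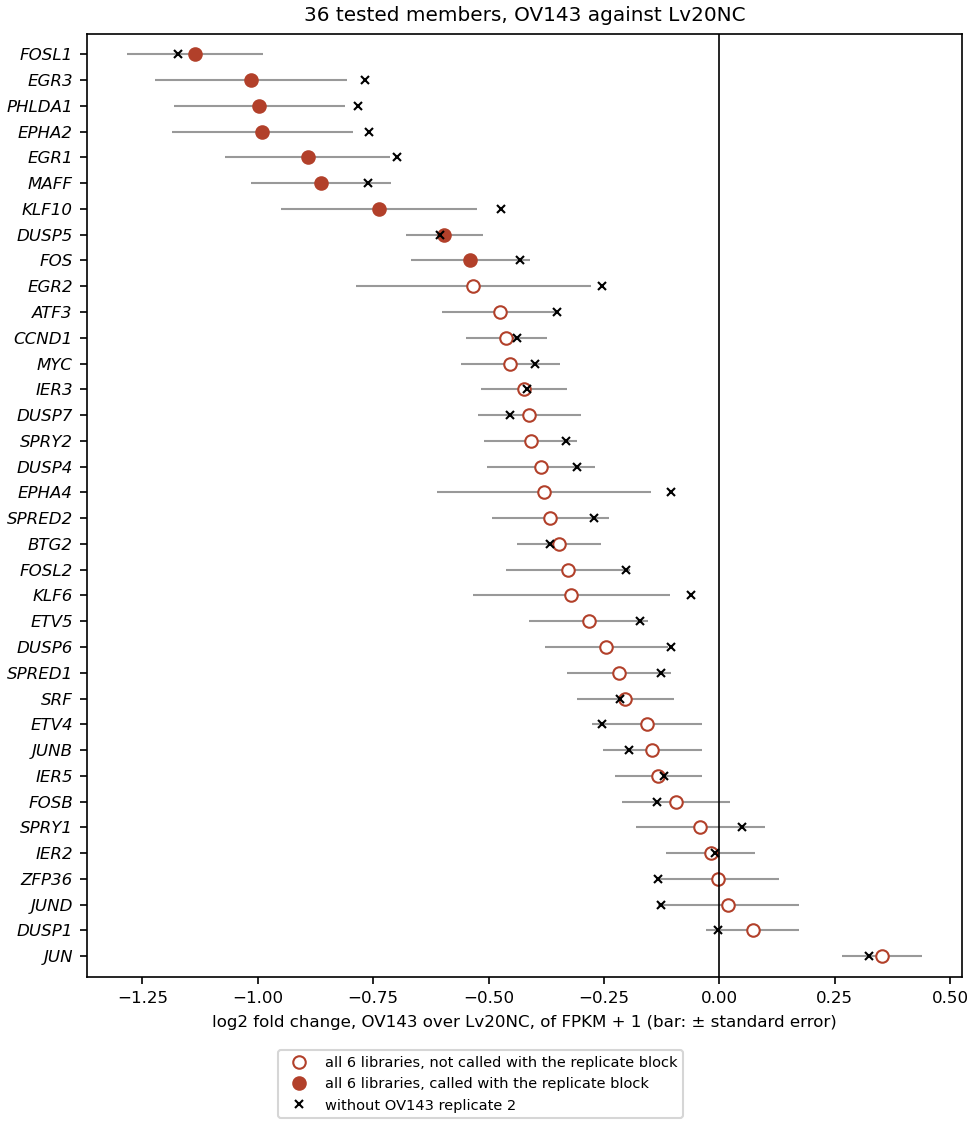
Log2 fold change of OV143 over Lv20NC for the 36 tested members, with bars of 1 standard error of the fit without the block. Filled circles mark the 9 called with the replicate block, and crosses the value without OV143 replicate 2. FOSL1 is lowest at -1.14 and JUN highest at 0.35, and most crosses lie closer to 0 than the circles.

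The upstream parts of the cascade were read with a list of 36 further genes, from receptors through Ras, Raf, MEK and ERK to ETS factors, of which 35 were tested. None was called without the block. Without OV143 replicate 2, 6 were called, beside 4.48% of 11414 genes. With the block 4 were called, all lower in OV143, beside the 1.94% of all genes given above. In 9 of the 35 (25.7%) every OV143 library lay below every control library, beside 12.9% of all genes. The 4 with the smallest p without the block were SPRED3, PEA15, ELK3 and MKNK2. PEA15, a protein that holds ERK in the cytoplasm, averaged 70.2 ± 1.78 FPKM in OV143 and 100.7 ± 11.4 FPKM in Lv20NC and fell by 0.51 (SE 0.11, limma adjusted p = 0.0444 with the block and 0.196 without). MKNK2, a kinase activated by ERK that phosphorylates the translation factor eIF4E, averaged 43.1 ± 9.27 and 79.3 ± 16.3 FPKM and fell by 0.86 (SE 0.21, limma adjusted p = 0.0444 with the block and 0.218 without). SPRED3 and the ETS factor ELK3 had log2 fold changes of -0.50 and -0.55 and were not called (limma adjusted p = 0.0527 and 0.0521 with the block).

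The other 2 of the 4 called with the block, named for that reason, were RASA1, a Ras GTPase activating protein, and the transcription factor ETS1, with log2 fold changes of -0.61 and -0.64 and limma adjusted p-values of 0.0497 and 0.0474. MAPK7 and ELK1, described as targets of miR-143 in human cells, were looked up for that reason and were not called with or without the block. MAPK7 and ELK1 had log2 fold changes of -0.21 and -0.22, and the groups overlapped for both genes. Without OV143 replicate 2 MAPK7 was called, at -0.44 (limma adjusted p = 0.0426).

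The knockdown vectors were compared with Lv3NC, a control they share. No member was called in either comparison, with or without the block. In Lv133KD against Lv3NC, 4 of the 36 members had an unadjusted p under 0.05, beside 3.26% of all genes. With the block it was 8 of 36 (22.2%), beside 16.5% of all genes. The share of all genes called was 0.0172% without the block and 0.258% with it. In Lv143KD against Lv3NC, 2 of the 36 had an unadjusted p under 0.05, beside 1.79% of all genes. In the fit that takes in the replicate number it was 3 of 36 (8.33%), beside 5.74% of all genes. For this vector the share of all genes called was 0.0172% without the block and 0.172% with it. The median log2 fold change of the members was -0.09 for Lv133KD and -0.08 for Lv143KD, beside 0.01 and -0.01 over all 11645 genes tested. The sign of each median rested on 1 library. Without Lv133KD replicate 2 the members' median for Lv133KD was 0.097, beside 0.032 over all genes. Without Lv143KD replicate 2 the median for Lv143KD was 0.073, beside 0.004 over all genes.

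ZFP36, MAFF and KLF6 were the 3 members with every Lv133KD library below every Lv3NC library, beside 3.33% of all genes, and no member lay above, beside 4.69% of all genes. For Lv143KD ZFP36 lay below, beside 2.03% of all genes, and DUSP5 above, beside 2.11%. ZFP36 (gene 100316849, chromosome 6, 48063732 to 48066235) had 36.73, 20.28 and 24.41 FPKM in Lv133KD and 32.25, 22.44 and 32.47 FPKM in Lv143KD, against 38.54, 36.94 and 55.97 FPKM in Lv3NC. Its log2 fold changes were -0.69 (SE 0.24) and -0.57 (SE 0.24), with limma adjusted p-values of 0.926 and 1.0 without the block and 0.163 and 0.486 with it. DUSP5 had 65.21, 64.99 and 57.01 FPKM in Lv133KD and 62.61, 66.81 and 60.07 FPKM in Lv143KD, against 50.80, 57.20 and 52.84 FPKM in Lv3NC. All Lv143KD libraries of this nuclear ERK phosphatase gene and all but replicate 3 of Lv133KD were above the controls. The log2 fold changes of DUSP5 were 0.21 for Lv133KD and 0.23 for Lv143KD (SE 0.09 each without the block). With the block its limma adjusted p-values were 0.248 and 0.606.

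MAFF had 17.35, 13.80 and 15.93 FPKM in Lv133KD and 17.60, 14.13 and 29.74 FPKM in Lv143KD, against 22.18, 21.18 and 26.33 FPKM in Lv3NC. Lv143KD replicate 3 was its highest library, and the Lv133KD libraries were all below the controls, at a log2 fold change of -0.54 (SE 0.23, limma adjusted p = 0.926 without and 0.211 with the block). SPRY1, the Sprouty gene with the smallest p here, had 9.25, 5.56 and 7.89 FPKM in Lv133KD and 9.0, 6.04 and 5.04 FPKM in Lv143KD, against 5.61, 4.97 and 3.94 FPKM in Lv3NC. Its log2 fold changes were 0.54 and 0.38 (SE 0.22 each without the block), with limma adjusted p-values of 0.187 and 0.773 with the block. BTG2 had 14.16, 7.75 and 10.39 FPKM in Lv133KD and 14.76, 7.22 and 18.73 FPKM in Lv143KD, against 15.79, 12.03 and 25.11 FPKM in Lv3NC, and its groups overlapped. Its log2 fold changes were -0.64 and -0.39 (SE 0.36 each without the block), with limma adjusted p-values of 0.206 and 0.885 with the block. DUSP7, the remaining gene among the 5 smallest p for Lv143KD without the block, had 1.21, 0.90 and 2.13 FPKM there against 5.06, 1.38 and 1.40 FPKM in Lv3NC. Its log2 fold change of -0.47 (SE 0.39 without the block, limma adjusted p = 0.974 with it) rests on Lv3NC replicate 1.

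Of the members that fell in OV143, DUSP5 and MAFF are given above, each apart from Lv3NC in 1 knockdown vector, and EPHA2 below. PHLDA1 had 15.18 to 29.27 FPKM in Lv133KD, 14.71 to 29.88 in Lv143KD and 11.08 to 31.86 FPKM in Lv3NC. KLF10 had 91.74 to 141.58, 96.67 to 157.71 and 125.42 to 162.36 FPKM in the same order, and both genes overlapped between vectors. FOSL1 had 47.81, 38.97 and 48.26 FPKM in Lv133KD and 46.04, 40.09 and 30.93 FPKM in Lv143KD, against 44.34, 50.27 and 19.26 FPKM in Lv3NC. EGR1 had 120.64, 58.78 and 103.27 FPKM in Lv133KD and 102.44, 70.49 and 119.48 FPKM in Lv143KD, against 75.49, 106.52 and 134.69 FPKM in Lv3NC. For FOSL1 and EGR1 the libraries of the 3 vectors overlapped. FOS had 75.19, 30.53 and 60.26 FPKM in Lv133KD and 62.78, 36.84 and 57.50 FPKM in Lv143KD, against 63.57, 53.33 and 72.20 FPKM in Lv3NC, again with overlap. The other FOS and EGR genes overlapped as well, with FOSL2 at 38.94 to 51.48 FPKM in Lv133KD, 37.42 to 53.82 in Lv143KD and 41.43 to 45.91 FPKM in Lv3NC. FOSB, EGR2 and EGR3 were low throughout, at most 1.25, 1.86 and 1.28 FPKM in any library.

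The remaining abundant members and feedback genes differed mostly among libraries of one vector. MYC had 214.94, 157.08 and 174.04 FPKM in Lv133KD and 220.82, 159.51 and 102.91 FPKM in Lv143KD, against 179.08, 204.67 and 77.74 FPKM in Lv3NC. KLF6, a Krüppel-like factor, had 144.66, 126.13 and 134.39 FPKM in Lv133KD and 137.85, 130.39 and 159.70 FPKM in Lv143KD, against 147.33, 153.11 and 147.05 FPKM in Lv3NC. IER3 had 132.42, 89.50 and 104.13 FPKM in Lv133KD and 130.06, 91.47 and 158.68 FPKM in Lv143KD, against 100.88, 98.16 and 147.46 FPKM in Lv3NC. KLF6 in Lv133KD did not overlap its control, and the other comparisons of these 3 genes did. EPHA2 had 105.64, 54.16 and 99.98 FPKM in Lv133KD and 104.99, 57.67 and 84.29 FPKM in Lv143KD, against 116.03, 89.90 and 68.19 FPKM in Lv3NC. ATF3 had 87.61, 48.62 and 76.40 FPKM in Lv133KD and 92.38, 48.25 and 99.30 FPKM in Lv143KD, against 78.42, 77.25 and 93.83 FPKM in Lv3NC. Replicate 2 was the lowest for ATF3 and EPHA2 in both knockdown vectors, and so it was for IER5, at 53.67 FPKM in Lv133KD and 52.91 FPKM in Lv143KD beside 72.56 FPKM in Lv3NC.

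Among the feedback genes DUSP6 had 73.34, 54.57 and 84.59 FPKM in Lv133KD and 65.23, 66.35 and 85.75 FPKM in Lv143KD, against 71.93, 70.57 and 60.15 FPKM in Lv3NC. DUSP4 was even, at 21.11 to 23.07 FPKM in Lv133KD, 20.76 to 23.50 in Lv143KD and 21.70 to 24.85 FPKM in Lv3NC. SPRY2 had 67.26, 46.44 and 55.09 FPKM in Lv133KD and 65.90, 46.42 and 50.03 FPKM in Lv143KD, against 56.95, 54.90 and 41.95 FPKM in Lv3NC. All 3 genes overlapped between vectors. SPRED1 averaged 6.71 ± 1.24 FPKM in Lv133KD, 5.93 ± 1.44 in Lv143KD and 5.04 ± 1.67 FPKM in Lv3NC, and SPRED2 14.2 ± 2.16, 14.1 ± 2.35 and 14.2 ± 3.71 FPKM. DUSP2 and SPRY4 stayed at or under 0.11 and 0.08 FPKM. Of the cascade list, 0 of 35 were called for either vector with or without the block. Without the block the gene with the smallest p was KSR1, a Raf scaffold, with log2 fold changes of 0.20 for both vectors (limma adjusted p = 0.926 and 1.0). With the block PEA15 had the smallest p for Lv133KD, at a log2 fold change of -0.33 (limma adjusted p = 0.239).

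Set directly against each other, Lv133KD and Lv143KD did not separate in any member. None of the 36 had groups of libraries without overlap, beside 2.11% of all genes higher and 0.550% lower in Lv133KD. None had an unadjusted p under 0.05, beside 15 of all genes (0.129%). No member was called with or without the block, where 0% of all genes was called. With shares this small over all genes, these counts do not set the members apart. The 5 with the smallest p were MAFF, DUSP1, IER3, KLF6 and SPRY1, with log2 fold changes of -0.30, -0.36, -0.20, -0.08 and 0.16 and limma adjusted p-values of 1.0 in the plain fit and from 0.91 to 0.915 in that with the block. The standard errors of these 5 genes were 0.10 to 0.39, so the p-values do not show that the vectors acted alike.

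**Figure D4:**
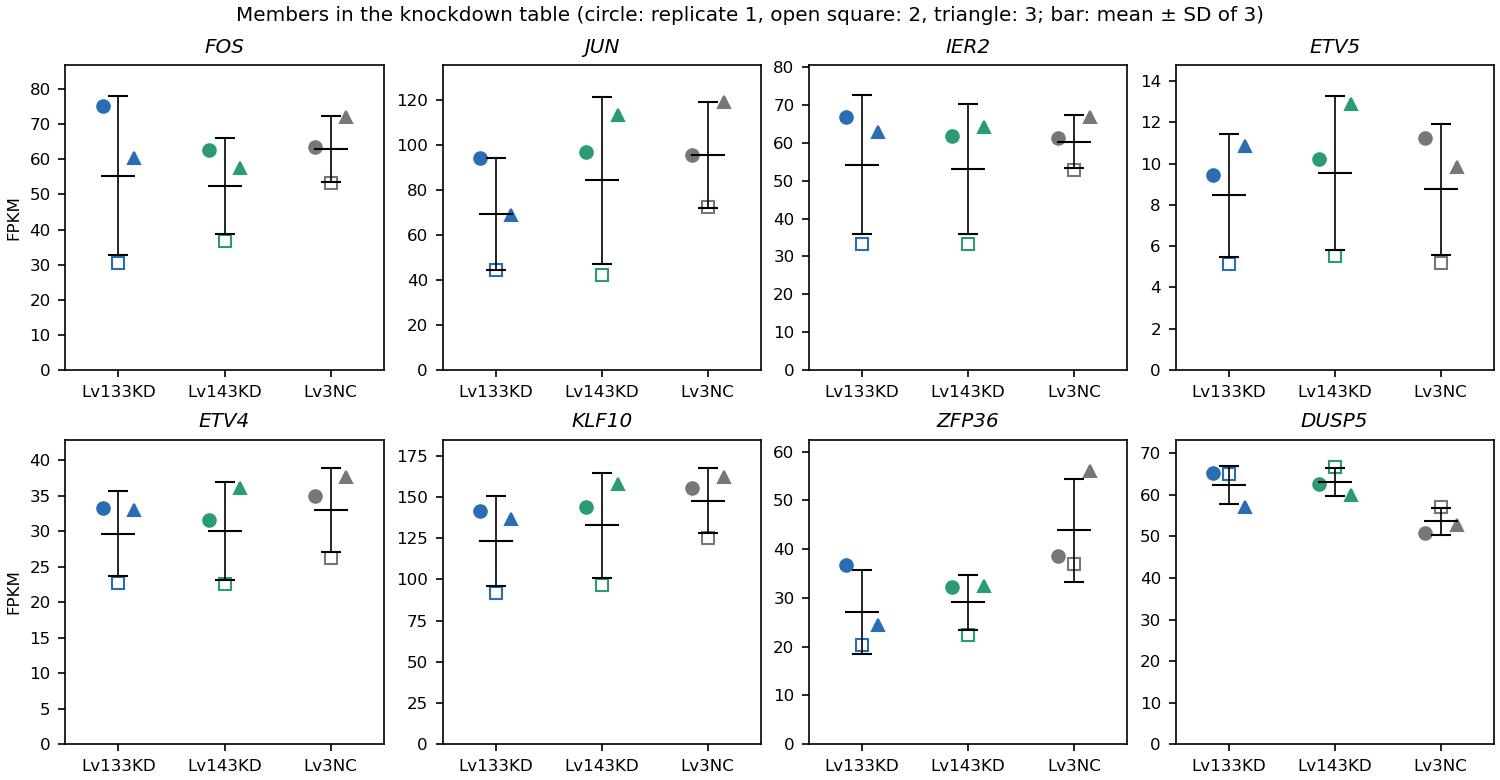
FPKM of selected members in each library of the knockdown table, Lv133KD, Lv143KD and Lv3NC from left to right, with a circle, open square and triangle for replicates 1, 2 and 3 and bars for the mean ± SD. Replicate 2 of Lv133KD and Lv143KD lies low for many of these genes, and the vector groups overlap in all panels but those of ZFP36 and, for Lv143KD, DUSP5.

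The larger contrast in the knockdown table ran between replicate numbers. With vector as a term in the fit, number 2 was set against the mean of numbers 1 and 3. Of the 36 members 17 were called, all lower in number 2, beside 34.0% of all genes called in either direction and 20.8% called lower. The median log2 fold change was -0.36, beside -0.03 over all genes. The early response genes FOS, FOSL2, JUN, JUND, ATF3, IER2, IER3 and IER5 were among the 17. No source used here says what a replicate number stands for.

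JUN had 44.49 FPKM in Lv133KD, 42.38 FPKM in Lv143KD and 72.37 FPKM in Lv3NC in number 2, against 94.42 and 69.06, 97.01 and 113.67, and 95.67 and 119.38 FPKM in numbers 1 and 3 of the same vectors. It fell by 0.90 on the log2 scale (SE 0.15, limma adjusted p = 0.0026). IER2 had 33.24, 33.32 and 52.88 FPKM in number 2 of Lv133KD, Lv143KD and Lv3NC, against 61.16 to 66.75 FPKM in the 6 libraries of numbers 1 and 3, and fell by 0.70 (SE 0.12, limma adjusted p = 0.00275). In both genes the Lv3NC library of number 2 was less low than those of the knockdown vectors. FOS averaged 40.2 ± 11.8 FPKM in the 3 libraries of number 2 and 65.3 ± 6.94 FPKM in the other 6, and fell by 0.72 (SE 0.13, limma adjusted p = 0.00393). ATF3, IER5, IER3, JUND and FOSL2 fell by 0.62, 0.42, 0.45, 0.34 and 0.29, with limma adjusted p-values of 0.00846, 0.0076, 0.0242, 0.0168 and 0.0191.

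The ETS factor ETV5 (gene 100623208, chromosome 13, 123873346 to 123930292) had 5.13, 5.53 and 5.16 FPKM in number 2 of Lv133KD, Lv143KD and Lv3NC, against 9.43 to 12.87 FPKM in the other 6 libraries. The 3 libraries of number 2 were nearly equal, and ETV5 fell by 0.90 (SE 0.09, limma adjusted p = 0.00027). ETV4, its close relative, had 22.70, 22.55 and 26.26 FPKM in number 2, against 31.61 to 37.65 FPKM in the others, and fell by 0.51 (SE 0.07, limma adjusted p = 0.000852). KLF10 had 91.74, 96.67 and 125.42 FPKM in number 2, against 136.42 to 162.36 FPKM in the others, and fell by 0.52 (SE 0.07, limma adjusted p = 0.00138). For these 3 genes no library of number 2 overlapped the others, as in 9 of the 36 members (25.0%), beside 19.1% of all genes lower without overlap.

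Of the feedback genes, DUSP1 fell by 0.73 (SE 0.21, limma adjusted p = 0.0251), and no other phosphatase, Sprouty or SPRED gene was called. DUSP1 had 23.33, 23.98 and 31.18 FPKM in number 2 of Lv133KD, Lv143KD and Lv3NC, against 27.41 to 70.40 FPKM in the others. DUSP5 and DUSP4 kept 57.20 to 66.81 and 20.76 to 24.85 FPKM in number 2, against 50.80 to 65.21 and 21.11 to 23.50 FPKM in the others, with overlap. The receptor genes EPHA4 and EPHA2 fell by 0.64 and 0.53 (limma adjusted p = 0.00221 and 0.0308), and BTG2, ZFP36 and PHLDA1 by 0.79, 0.46 and 0.61 (limma adjusted p = 0.00548, 0.034 and 0.0393). MYC, FOSL1 and FOSB had log2 fold changes of 0.19, 0.18 and 0.20 and were not called.

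The count rests in part on single libraries. The members' median log2 deviation was -0.35 and -0.38 in replicate 2 of Lv133KD and Lv143KD but -0.003 in that of Lv3NC. Over all genes tested it was -0.018, -0.05 and 0.014 in these libraries. Without Lv143KD replicate 2 the count was 7 of 36 (19.4%), beside 10.8% of all genes. Without Lv133KD replicate 3 it was 22 of 35 (62.9%), beside 48.9% of all genes, so the counts over members and over all genes moved the same way. In the cascade list 12 of 35 were called (34.3%), 3 higher and 9 lower in number 2, a share like the 34.0% of all genes. MKNK2 averaged 33.7 ± 12.7 FPKM in number 2 and 163.5 ± 42.8 FPKM in the others and fell by 2.27 on the log2 scale (SE 0.18, limma adjusted p = 0.000101).

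**Figure D5:**
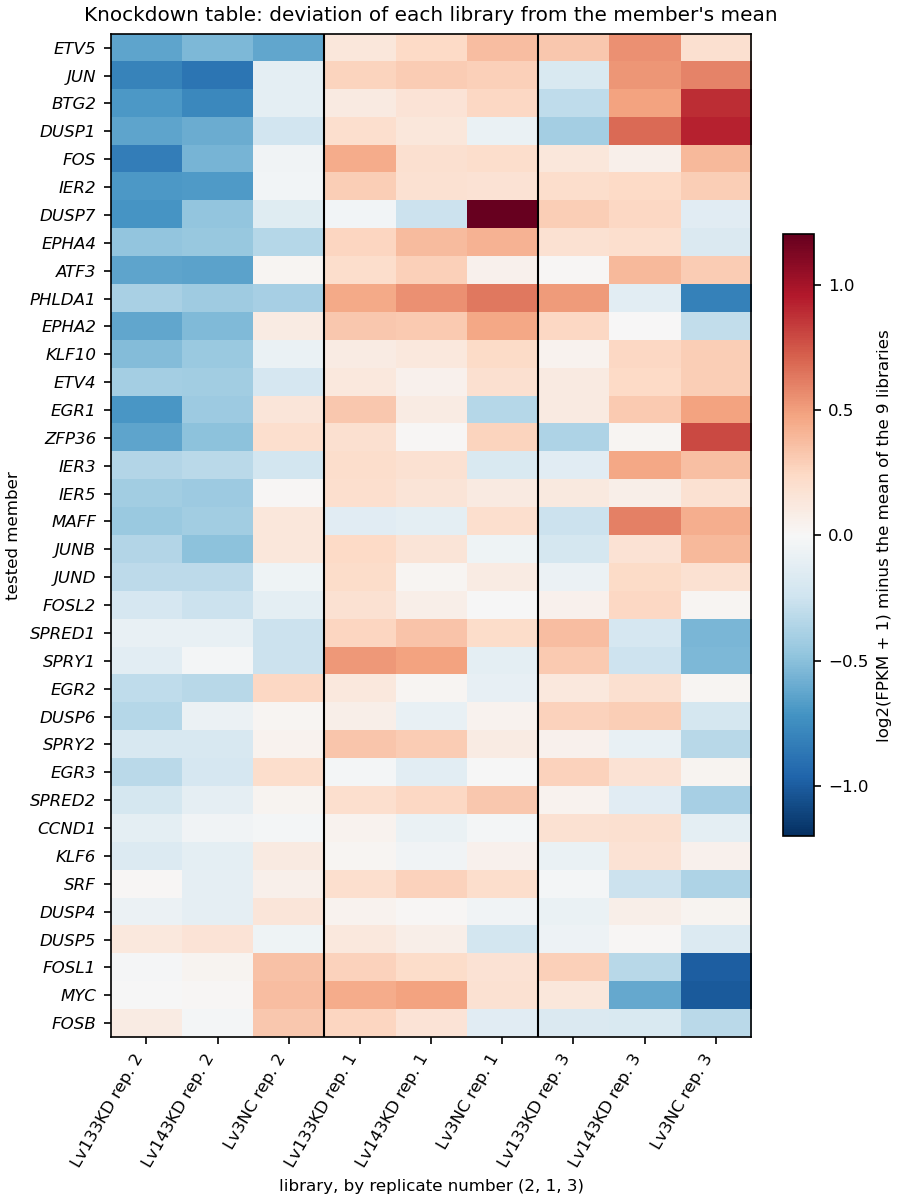
Log2 deviation of each tested member from its mean over the 9 libraries of the knockdown table, members down the page and libraries across it in the order of numbers 2, 1 and 3, with blue for below and red for above the mean. Replicate 2 of Lv133KD and Lv143KD is blue for most members, while Lv3NC replicate 2 is mixed. Lv3NC replicate 3 holds both the lowest values of 10 members and the highest of 8, counts that were not taken over all genes.

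Number 3 against number 1 gave no called member, beside 0.120% of all genes, and 10 of the 36 (27.8%) had an unadjusted p under 0.05, beside 30.7% of all genes. MYC averaged 118.2 ± 49.9 FPKM in number 3 and 204.9 ± 22.6 FPKM in number 1, at 174.04, 102.91 and 77.74 FPKM in Lv133KD, Lv143KD and Lv3NC against 214.94, 220.82 and 179.08 FPKM. Its log2 fold change was -0.86 (SE 0.22, limma adjusted p = 0.0804). SRF, SPRED2, SPRY2 and SPRY1 had log2 fold changes of -0.45, -0.43, -0.37 and -0.45 and limma adjusted p-values of 0.0804 to 0.0895. Without Lv133KD replicate 3, 14 of 35 members tested were called (40.0%), beside 38.7% of all genes, and without Lv133KD replicate 2 it was 1 of 36, beside 1.53% of all genes. Neither share stands clear of that over all genes. Lv3NC replicate 3 was the lowest library of the table for MYC and FOSL1, at 77.74 and 19.26 FPKM, and the highest for JUN and EGR1, at 119.38 and 134.69 FPKM.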

How the data were processed

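RNA sequencing libraries of IPEC-J2 cells, 15 in 5 vector groups of 3, were deposited as FPKM per gene with 2 decimals, in one table of 9 and another of 6 libraries, per the file headers. The submitters' processing notes name the build Sscrofa11.1. For the aligner, counter, annotation and strand use: not given in the sources used here. Symbols and coordinates came from the RefSeq table of that build, which matched 18618 of 19000 and 16949 of 17001 genes. The tables were normalised separately and fitted separately, on log2(FPKM + 1), which understates changes of low genes, for the 11645 and 11506 genes that reached 1 FPKM in 3 or more libraries. limma 3.58.1 in R 4.3.3 was used with a variance trend, two-sided tests and Benjamini-Hochberg adjustment at 0.05, after a test on simulated data. The simulated libraries had independent errors and no effect of the replicate number, so that test cannot speak for the pairing by number. Read totals could not be settled from the low values, so precision is given as the SD over libraries and the standard error of the fit.

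Libraries of the same replicate number correlated in their deviations from the group mean at 0.27 to 0.852 (9 pairs, knockdown table) and 0.229 to 0.716 (3 pairs, overexpression table), all over 0.1, so the number was fitted as a block beside the plain fit. Libraries of different number reached 0.379 and 0.54, the last for Lv20NC replicate 3 with OV143 replicate 1, above the 0.229 of replicate 1 of both. The pairing comes from the numbers in the sample names. No 2 libraries were identical. Fold changes, errors and adjusted p-values are given for members called in a comparison without or with the block. Where fewer than 5 were called, they are given for the 5 smallest p without the block. Library values are given for those, for the 10 most abundant members and for the FOS, EGR, DUSP, SPRY and SPRED families. Of the cascade list up to 4 genes were to be named by smallest p, and others are marked in the text. The members, lists and tests were chosen with earlier results of these data known. The alternatives were another pseudocount, no filter, quantile and median-ratio scaling, library weights, the block, and leaving out each library.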

Additional observations from a re-analysis of the deposited data

How the results depend on the processing

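The comparison of OV143 with Lv20NC depended on the fit. Against 0 of 36 members called without the block, the replicate block gave 9 (beside 1.94% of all genes), library weights gave 25 (beside 23.0%, their estimation stopping before converging), and leaving out 1 library gave 0 to 17, the highest without OV143 replicate 2 (beside 4.48%). Settings added after the data were seen combined the block with quantile scaling (11 called, beside 2.23% of all genes), with median-ratio scaling (9, beside 2.02%) or without number 1, 2 or 3 (11, 21 and 8, beside 6.03%, 12.8% and 2.45%, with 1 residual degree of freedom). The pairing by number changed no call of a member for the knockdown vectors, where every setting gave 0. In number 2 against numbers 1 and 3, library weights gave 28 called members (77.8%, beside 63.7% of all genes) and leaving out 1 library 7 to 22 (beside 10.8% and 48.9%). In number 3 against number 1, library weights gave 24 (66.7%, beside 67.8% of all genes) and leaving out 1 library 0 to 14 (the 14 beside 38.7%). The log2 fold change of KLF6 in Lv133KD against Lv143KD, -0.075, changed sign to 0.005 with library weights and 0.008 without Lv143KD replicate 3, within a range of -0.137 to 0.008 over libraries left out. The cause of these shifts was not tested. FPKM keeps no read total, so counting error could not be given, and members near 1 FPKM, such as EGR3 and FOSB in the knockdown table, are the least certain.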
